A study of Solanum tuberosum with 36 samples.

Results

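Leaves of the drought-tolerant potato cultivar Gwiazda and the drought-sensitive cultivar Oberon were compared on day 0 of a drought experiment, when all plants were still watered. Day 0 of these cultivars was chosen by its labels and holds 6 of the 36 samples of the study, 3 of Gwiazda and 3 of Oberon. Both groups were watered plants in pots of vegetable soil whose tubers had begun to form, and 3 different plants per cultivar and day were sampled from the third, the fourth and the fifth leaf below the top. The other samples are leaves of the same cultivars on days 6 and 10 without water, and of the pair Tajfun (tolerant) and Owacja (sensitive) on the same days. The study used the day 0 comparison, by its own test, to set aside genes that already differed between the cultivars of a pair before drought. The comparison here asks by a separate test which genes differed on day 0 and by how much. Its calls are therefore not the list of genes that the study set aside.

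A cultivated potato is a vegetatively propagated, highly heterozygous tetraploid, so all plants of a cultivar carry the same combination of alleles, and cultivars that are related by descent still differ at many loci. A transcript can differ between watered plants of 2 cultivars because a gene is absent, because its sequence has diverged, or because it is expressed at another level. Drought-responsive transcripts of leaves, such as those of dehydrins and other late embryogenesis abundant proteins, are kept low in watered plants and accumulate with abscisic acid when water is withdrawn. Transporters, desaturases and cytochrome P450 enzymes set the solute, membrane and metabolite composition of a leaf also in the absence of stress.

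For the 4 annotated genes on which the results turn, and for CAP160, the authors designed RT-PCR primers, which show the transcripts that are meant. They are written 5′ to 3′, and the capitals mark the last 5 bases at the 3′ end, from which the polymerase extends. CAP160 had a different reverse primer for each pair of cultivars.
Organic cation transporter, forward: gccatgaagatcatgCGTAA
Organic cation transporter, reverse: cgccatagagcacaaTTTCA
Nitrate transporter, forward: gtggtgcttggaagcTCTGT
Nitrate transporter, reverse: ggaattctgtggcttTGTGA
Cytochrome P450, forward: tcgaaccctaggactCATGG
Cytochrome P450, reverse: agtaaatcgcttcccAGCAA
Adenylyl cyclase-associated protein, forward: ctgtcgaaagctcctTCACC
Adenylyl cyclase-associated protein, reverse: taggagctgagccctGACAT
CAP160, forward: ccgaaactcgcgaaaCTAAG
CAP160, reverse for Gwiazda and Oberon: aaaccggagcaagtttTCCTG
CAP160, reverse for Tajfun and Owacja: tgcaaattcagttgcTGAGG

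The deposited tables list group means of normalized reads. The read counts behind them, as assigned to genes by the authors' software, were recovered as whole numbers for each library. Within a group the libraries are called a, b and c in order of their total, and the letters do not tie a library to a replicate number or to a library of another group. The recovered totals were 38689138 to 39974973 reads in Gwiazda and 34326631 to 36109478 in Oberon. Every total lay above the mapped reads that the paper lists for libraries of its group. The totals are thus assigned counts and not numbers of mapped reads, and the source of the excess was not tested. A read was present for 20486 to 21432 genes in Gwiazda and 20343 to 21301 in Oberon. The paper lists a lower share of mapped reads for every Oberon library of day 0 than for every Gwiazda library of day 0. The part of this gap in the differences between the cultivars was not tested. The first principal component of the 6 libraries held 46.5% of the variance and separated the cultivars. Gwiazda library b stood farthest from its group, with a root mean square deviation of 0.52 (log2) against 0.44 and 0.49 in Gwiazda libraries a and c and 0.39 to 0.46 in Oberon. Its deviations from the group mean correlated with those of Oberon library b (r = 0.35 across 13822 genes, which are not independent replicates). This was the largest such correlation between libraries of the 2 cultivars, and the others lay between -0.33 and 0.21. Deviations within a group sum to 0, so these correlations depend on each other. The source of the deviations was not tested. Oberon on day 10 held 2 libraries in the tables, where the labels give 3. The label leaf was not checked against marker genes, since 0 of the 25289 gene IDs matched the reference table used for names.

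On day 0, 390 genes were higher in Gwiazda (2.05% of the genes tested) and 255 were lower in Gwiazda than in Oberon (1.34%), together 645 of 19060 genes or 3.38%. Genes were tested with a mean of at least 10 normalized reads over the 6 libraries, by limma on log2(normalized reads + 1), and called at a Benjamini-Hochberg adjusted p below 0.05. The called genes with an annotation were an organic cation transporter (log2 difference 4.08) and a nitrate transporter (2.03), higher in Gwiazda, and a cytochrome P450 (-1.20), lower in Gwiazda. A called gene differed by a median of 2.04 on the log2 scale, or 4.12-fold, whereas the median over all genes tested was 0.35 in absolute value and -0.01 with its sign. The called differences reached from 0.67 to 11.75 in absolute value. At least 2-fold differences made up 583 of the calls (344 higher and 239 lower in Gwiazda), at least 4-fold differences 328 (175 higher, 153 lower) and at least 16-fold differences 220 (115 higher, 105 lower). The ranges of the cultivars did not overlap in all 645 called genes, and in 24.4% of the genes tested.

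**Figure D1:**
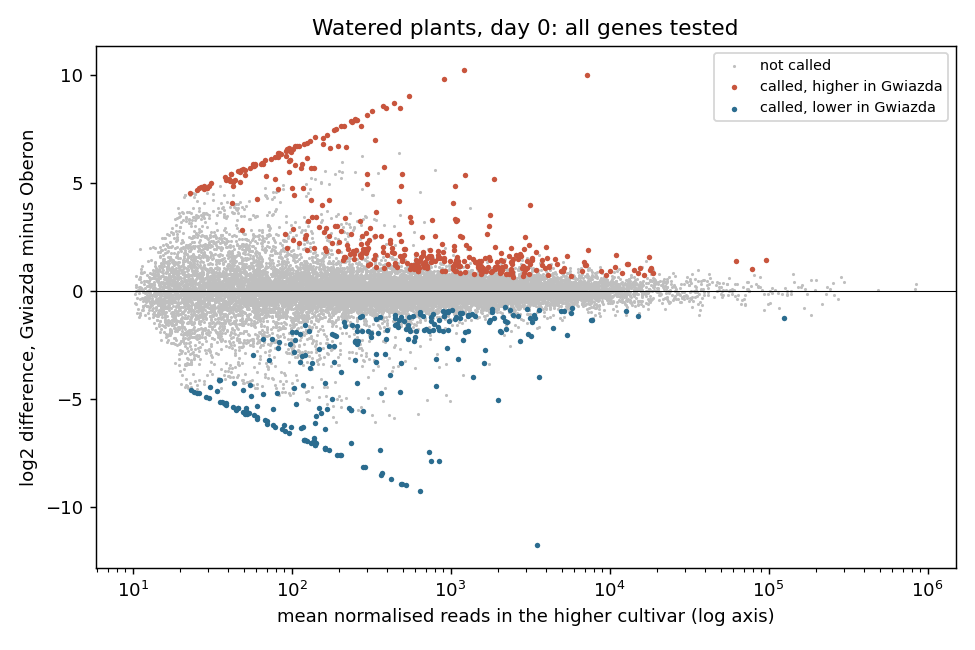
Log2 difference of normalized reads on day 0, Gwiazda minus Oberon (vertical axis), against the mean of normalized reads in the cultivar where it is higher (horizontal axis, log scale), for the 19060 genes tested. Red points are the 390 genes higher in Gwiazda, blue points the 255 lower in Gwiazda, and grey points were not called. The called genes lie at smaller differences as the mean grows.

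A fit without a library has fewer replicates in that group, and fewer calls can come from this alone. The part of the lost replicate in the counts below was not tested. The number of calls fell whichever library was left out. It was 251 without Gwiazda library a, 244 without Gwiazda library c, 257 without Oberon library a, 284 without Oberon library b and 294 without Oberon library c, against 621 without Gwiazda library b. Higher calls outnumbered lower calls without each Oberon library (181 against 76, 197 against 87 and 188 against 106), but not without Gwiazda library a (113 against 138), b (307 against 314) or c (103 against 141).

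The calls were spread over all levels of expression. Of the genes whose higher cultivar had a mean below 100 normalized reads, 118 of 4647 were called, with a median absolute log2 difference of 5.40 among the called and a median standard error of 0.70 over all genes tested at that level. From 100 to 1000 normalized reads, 326 of 8212 genes were called with a median difference of 2.25 and a standard error of 0.30, and from 1000 to 10000 normalized reads 181 of 5628, with 1.26 and 0.21. Above 10000 normalized reads 20 of 573 genes were called, with a median difference of 1.07 and a standard error of 0.21. At this highest level 17 genes were higher in Gwiazda and 3 lower, while at the lowest level the numbers were 61 and 57.

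The means listed by the authors gave a description that does not rest on the recovered reads. With a mean of at least 100 normalized reads in the higher cultivar, 717 genes were at least 2-fold higher and 691 at least 2-fold lower in Gwiazda, together 1408 of 14413 genes or 9.77%. No error stands behind this count.

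The genes with the largest differences among those with a read in all 6 libraries and a mean of at least 100 normalized reads in the higher cultivar had no annotation in the sources used here. In the first of these, Gwiazda held 245, 1022 and 208 normalized reads in libraries a to c, against 16.4, 5.71 and 4.53 in Oberon (log2 difference 5.44 ± 0.73, SE; limma, adjusted p = 0.00923). The second held 311, 967 and 2405 normalized reads in Gwiazda, against 26.7, 30.4 and 11.3 in Oberon (5.35 ± 0.73, adjusted p = 0.00976 in limma). Both were well apart between the cultivars but varied several-fold among the Gwiazda libraries, and with precision weights (limma-voom) neither was called, at adjusted p values of 0.151 and 0.127. The first difference was 4.71 without Gwiazda library b, and the second 4.64 without Gwiazda library c and 6.11 without Gwiazda library a. In the opposite direction 1 gene held 1.79, 5.53 and 6.19 normalized reads in Gwiazda, against 158, 340 and 190 in Oberon (-5.43 ± 0.58, limma, adjusted p = 0.00363). Another held 89.3, 31.3 and 57.7 normalized reads in Gwiazda, against 2747, 1105 and 2119 in Oberon (-5.07 ± 0.46, limma, adjusted p = 0.00199). This last gene was also called lower in Gwiazda on day 6 (-5.34, limma, adjusted p = 0.00698) and on day 10 (-4.05, adjusted p = 0.00508).

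A further gene was chosen after its values were seen, as it combined a high level with a near absence in the other cultivar. It held 7939, 7045 and 6778 normalized reads in Gwiazda, against 22.6, 13.3 and 0 in Oberon (log2 difference 10.02, limma, adjusted p = 0.00332; 8.62 without Oberon library c and 10.90 without Oberon library a). Under drought it stayed between 3725 and 5026 normalized reads in all 6 Gwiazda libraries, against 0 to 6.13 in the 5 Oberon libraries. In the other pair the order was turned round, with 17.1, 0 and 0 normalized reads in Tajfun, against 2904, 2198 and 2184 in Owacja.

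A number of genes had no read at all in 1 cultivar. With a mean of at least 100 normalized reads in the other cultivar, 35 genes had no read in the 3 Oberon libraries and 33 had none in the 3 Gwiazda libraries. These 68 genes were chosen by their day 0 values, so that their difference on day 0 is a description, and 60 of them were among the called genes. In 61 of them all 3 libraries of the expressing cultivar held reads. The mean in the expressing cultivar had a median of 212 normalized reads (102 to 1215) for genes without a read in Oberon and 163 (102 to 3493) for genes without a read in Gwiazda. Set against a floor of 3 reads over the group, the group means of these 61 genes were 98.9-fold to 1179-fold apart for the 32 without a read in Oberon. For the 29 without a read in Gwiazda they were 126.9-fold to 3697-fold apart. Most genes had only even numbers of reads, so a floor of 3 reads is too low to cover counting error. These folds, here and below, are therefore no lower bounds. In the other 7 genes at least 1 library of the expressing cultivar was also at 0. Of the 19060 genes tested, all the called ones without a read in 1 cultivar, weaker genes included, numbered 79 for Oberon and 66 for Gwiazda, together 22.5% of the calls, while 448 called genes (69.5%) had a read in every library.

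The drought libraries, which the choice of the genes did not use, showed whether the absence lasted. In 38 of the 68 genes the silent cultivar had no read in any of its drought libraries, 19 of the 35 in the 5 Oberon libraries and 19 of the 33 in the 6 Gwiazda libraries. In 28 genes this absence stood beside reads in every drought library of the expressing cultivar. In 20 genes, however, the silent cultivar reached 10 normalized reads in at least 1 drought library, and in 10 of them 100. The highest such values were 2869 normalized reads in Oberon and 1377 in Gwiazda. A zero in 3 libraries was therefore no lasting absence for part of these genes. A read in both Tajfun and Owacja on day 0 was found for 44 of the 68 genes, in Tajfun alone for 10, in Owacja alone for 7, and in neither for 7.

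**Figure D2:**
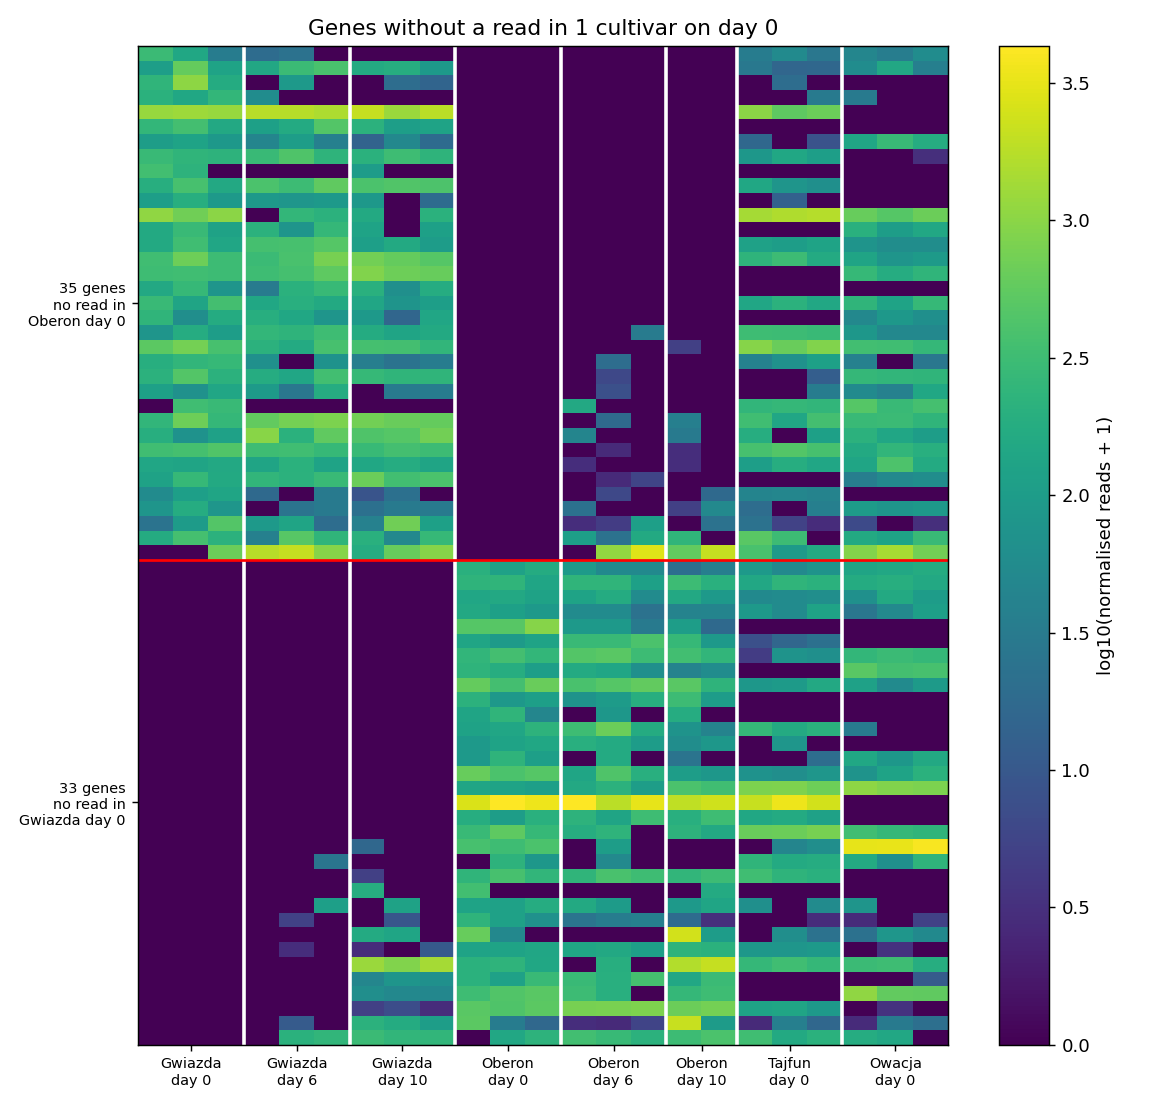
Normalized reads, as log10(normalized reads + 1) in colour, of the 35 genes without a read in Oberon and the 33 without a read in Gwiazda on day 0 (rows), in the 23 libraries of Gwiazda and Oberon on days 0, 6 and 10 and of Tajfun and Owacja on day 0 (columns). The cells of the silent cultivar stay at 0 in all its drought libraries for 38 of the 68 genes.

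The genes with the highest means in this set were all at 0 in every drought library of the silent cultivar, which holds for 38 of the 68 genes and not for the rest. PGSC0003DMG400002582 held 1194, 1265 and 1187 normalized reads in Gwiazda, against 0 in all 3 Oberon libraries, 1179-fold above the floor of 3 reads. It stayed between 1211 and 2041 normalized reads in Gwiazda under drought, against 0 in the 5 Oberon libraries, and in the other pair Tajfun held 1013, 535 and 653, against 0 in Owacja. PGSC0003DMG400025239 held 1056, 702 and 990 normalized reads in Gwiazda, against 0 in Oberon, 888-fold above the floor of 3 reads. Under drought it was no longer steady in Gwiazda, with 0, 250 and 218 normalized reads on day 6 and 160, 0 and 208 on day 10, against 0 in Oberon, and it was present in Tajfun (1398, 1565 and 1681) and in Owacja (624, 476 and 646).

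In the opposite direction, PGSC0003DMG401026585 held no read in any of the 9 Gwiazda libraries. Oberon held 2714, 4304 and 3461 normalized reads on day 0, 3697-fold above the floor of 3 reads. Its level in Oberon was 1816 to 4307 normalized reads under drought, and in the other pair Tajfun held 2123, 3489 and 2446, against 0 in Owacja. For this gene the tolerant cultivar was thus the silent one in the first pair and the expressing one in the second. PGSC0003DMG400010922 had no read in any Gwiazda library, and none in Tajfun or Owacja on day 0. Oberon held 478, 495 and 945 normalized reads of it on day 0, 677-fold above the floor of 3 reads. In Oberon it had 29.4 to 92.7 normalized reads on day 6 and 105 and 16.3 on day 10, all below its day 0 values. Reads of both cultivars were mapped to 1 reference genome of another potato, so a gene that is absent or diverged in a cultivar and a gene that is not expressed there cannot be told apart. A zero was moreover an estimate for a single library, since the DEAD box RNA helicase PGSC0003DMG400001771 was listed at 75.5 normalized reads in Gwiazda library b and at 0 in Gwiazda libraries a and c, against 87.5 in Oberon library b and 0 in Oberon libraries a and c.

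A function was known for 33 genes, the only ones by which the difference between watered plants can be read by role. Of these, 30 were tested and 3 were called, against 3.38% of all genes tested, and their median log2 difference was 0.12. The 3 were the 2 transporters and the cytochrome P450, which the study picked for Tajfun and Owacja and not for Gwiazda and Oberon, while CAP160 was picked for both pairs. The groups by role below were put together for this comparison and are not gene lists of the study. Of the 8 tested genes picked for Gwiazda and Oberon none was called by limma, 2 had an unadjusted p below 0.05 and none was called by limma-voom, but the study picked those genes on these samples for the lack of a difference on day 0. In a bulk leaf sample, fewer cells of a type and less RNA per cell cannot be told apart.

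**Figure D3:**
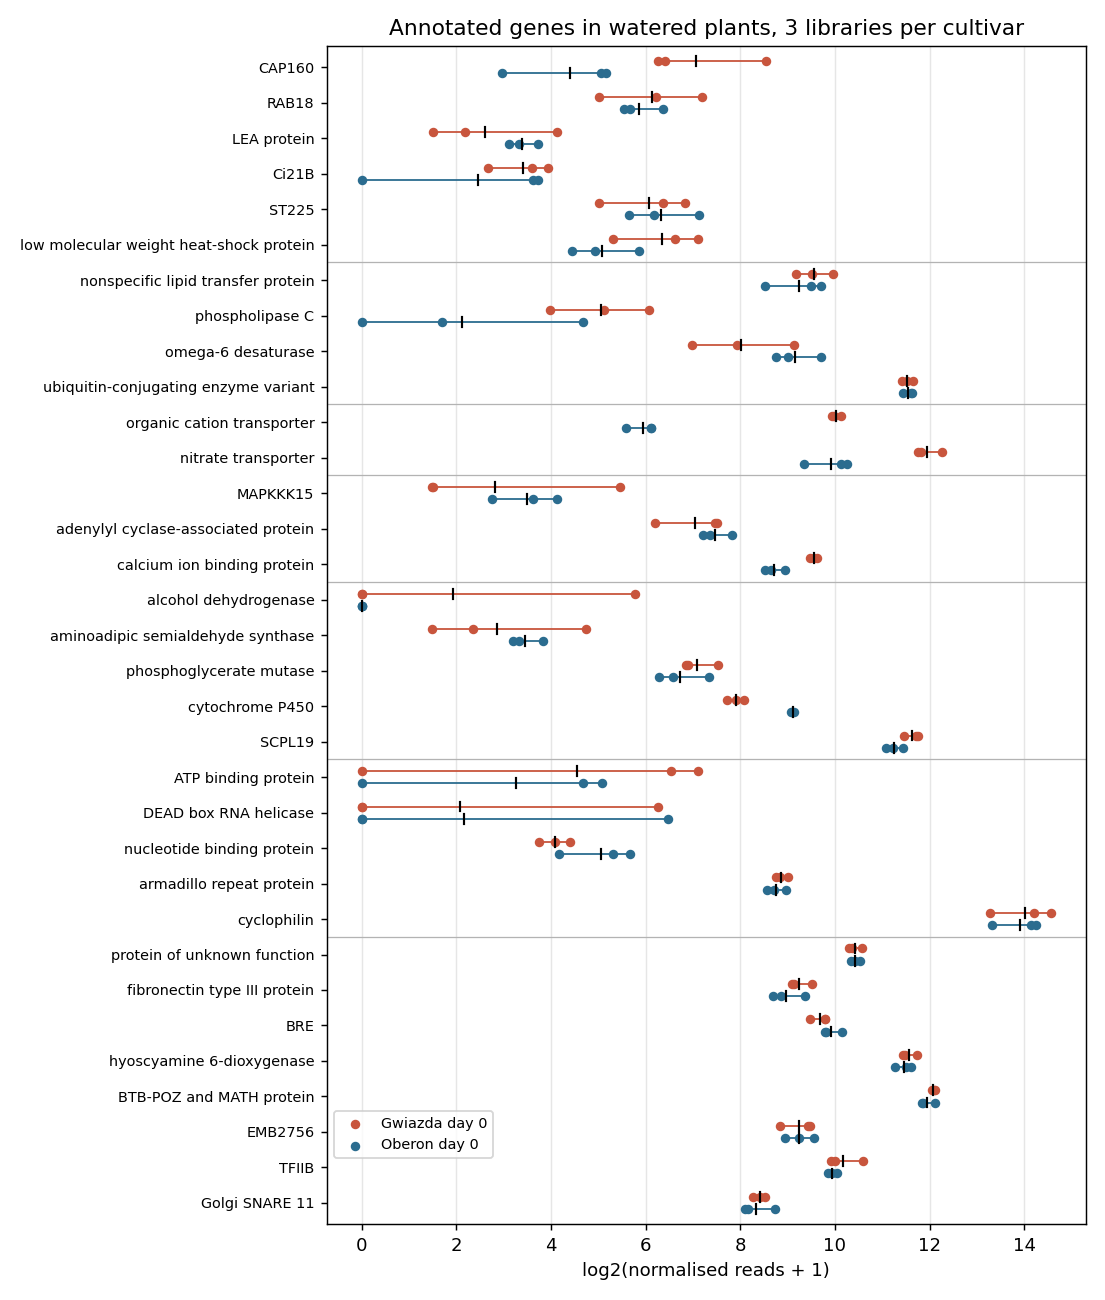
Normalized reads of the annotated genes on day 0, as log2(normalized reads + 1), in the 3 libraries of Gwiazda (upper row of points for each gene) and of Oberon (lower row), where the line is the range and the black tick the mean. The organic cation transporter and the nitrate transporter lie higher in Gwiazda with wide gaps, the cytochrome P450 lies lower, and CAP160, RAB18 and the heat-shock protein spread widely among libraries.

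Both transporters were higher in Gwiazda. The paper's text describes the product of the organic cation transporter gene (PGSC0003DMG400019233) as a carbohydrate transporter, and its substrate was not tested here. The gene held 1122, 1011 and 973 normalized reads in Gwiazda, against 47.2, 68.5 and 68.0 in Oberon. The values within each cultivar lay close together, and the lowest Gwiazda library was far above the highest Oberon library. The means were 1035 ± 77.0 in Gwiazda and 61.2 ± 12.2 in Oberon (SD, n = 3 each), a log2 difference of 4.08 ± 0.25 (SE), or 16.9-fold, with an adjusted p of 0.000481 in limma.

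The nitrate transporter (PGSC0003DMG400006913) is a homologue of an NRT2 carrier, a family that in Arabidopsis moves nitrate at low external concentrations or into the vacuole. It held 3590, 3432 and 4909 normalized reads in Gwiazda, against 1225, 1115 and 653 in Oberon. The means were 3977 ± 811 in Gwiazda and 997 ± 303 in Oberon (SD, n = 3 each), a log2 difference of 2.03 ± 0.27 (SE), or 4.08-fold, with an adjusted p of 0.00932 in limma. Both transporters were also called by limma-voom and without any single library.

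Among the metabolic enzymes 1 of the 4 genes tested was called, against 3.38% of all genes tested, a group too small to set against that share. The cytochrome P450 (PGSC0003DMG400014954), a member of the large family of heme enzymes that oxidize hormones, pigments and defence compounds, held 270, 239 and 210 normalized reads in Gwiazda, against 540, 546 and 564 in Oberon. With means of 240 ± 29.7 in Gwiazda and 550 ± 12.9 in Oberon (SD, n = 3 each), it was 2.30-fold lower in Gwiazda (log2 difference -1.20 ± 0.20, SE; limma, adjusted p = 0.0230). This call was lost without Gwiazda library a or c or any one of the Oberon libraries (adjusted p 0.0619 to 0.0886 in limma), while the log2 difference stayed between -1.29 and -1.11.

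The other enzymes did not pass the test. SCPL19 (PGSC0003DMG400008018), a serine carboxypeptidase-like protein, had 3329, 2816 and 3428 normalized reads in Gwiazda, against 2410, 2773 and 2174 in Oberon, ranges that did not overlap but lay close (log2 difference 0.38, limma, adjusted p = 0.273). Phosphoglycerate mutase, a step of glycolysis, had a log2 difference of 0.36 (limma, adjusted p = 0.666), and aminoadipic semialdehyde synthase, which degrades lysine, held 1.79 to 25.8 normalized reads in Gwiazda, against 8.21 to 13.3 in Oberon. Alcohol dehydrogenase, the last step of ethanol fermentation, was below the limit of testing and held 53.6 normalized reads in Gwiazda library c and 0 in the other 2 Gwiazda libraries, against 0 in Oberon.

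A group of 6 proteins tied to dehydration, cold or heat was formed here, of which 4 were tested. None of the 4 was called by limma, 1 had an unadjusted p below 0.05, and none was called by limma-voom. The study also links the homologues of the organic cation transporter and of alcohol dehydrogenase to water deprivation, so the group does not hold all such genes, and the transporter was called. CAP160 (PGSC0003DMG400014293), a homologue of a cold acclimation protein of spinach, held 84.0, 75.5 and 373 normalized reads in Gwiazda, against 34.9, 32.3 and 6.80 in Oberon. All Gwiazda libraries lay above all Oberon libraries, with means of 178 ± 170 and 24.7 ± 15.5 (SD, n = 3 each) and a log2 difference of 2.68 ± 0.82 (SE; limma, adjusted p = 0.138). It was 1.94 without Gwiazda library c and 1.96 without Oberon library c, and 3.01 to 3.08 without each of the others. When the libraries of all days shared 1 fit, the adjusted p was 0.018 at a log2 difference of 2.69.

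RAB18 (PGSC0003DMG400003531), a dehydrin that responds to abscisic acid and served as the drought marker, held 73.2, 31.3 and 144 normalized reads in Gwiazda, against 82.1, 45.6 and 49.9 in Oberon, and the ranges overlapped (log2 difference 0.27 ± 0.59, SE; limma, adjusted p = 0.845). The low molecular weight heat-shock protein (PGSC0003DMG400039484), a chaperone, held 138, 38.7 and 96.9 normalized reads in Gwiazda, against 57.4, 20.9 and 29.5 in Oberon (1.26 ± 0.60, SE; limma, adjusted p = 0.319). ST225 held 31.3 to 113 normalized reads in Gwiazda, against 49.5 to 138 in Oberon. The late embryogenesis abundant protein had 1.84 to 16.5 normalized reads in Gwiazda, against 7.61 to 12.3 in Oberon, and Ci21B 5.36 to 14.4 in Gwiazda, against 0 to 12.3 in Oberon, both too low to be tested. In this group Gwiazda library c held the highest Gwiazda value of every gene but the heat-shock protein, which was highest in Gwiazda library a. The share of all genes with their highest Gwiazda value in library c was not computed. Without this library the log2 difference of RAB18 was -0.25.

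A group of 3 genes was put together here under signalling, and it gave 1 difference close to the threshold. For that gene nothing beyond its name was used, so a role in signalling is not shown. The calcium ion binding protein (PGSC0003DMG400007427) held 748, 712 and 789 normalized reads in Gwiazda, against 365, 399 and 494 in Oberon. The cultivars did not overlap, and the log2 difference was 0.85 ± 0.20 (SE; limma, adjusted p = 0.0648; 0.0232 with all days in 1 fit). The adenylyl cyclase-associated protein (PGSC0003DMG400000723), which binds actin and promotes its turnover, held 180, 175 and 72.2 normalized reads in Gwiazda, against 164, 226 and 147 in Oberon, and these ranges overlapped (-0.42 ± 0.41, SE; limma, adjusted p = 0.642). MAPKKK15, a kinase at the head of a MAP kinase cascade, held 1.79, 1.84 and 43.3 normalized reads in Gwiazda, against 16.4, 5.71 and 11.3 in Oberon, so that a single Gwiazda library lay above all the others. None of the 3 was called by limma, 1 had an unadjusted p below 0.05, and none was called by limma-voom.

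A group of 4 genes of lipids and membranes was formed here without the transporters. The paper lists fatty acid desaturases as the Arabidopsis homologues of the ubiquitin-conjugating enzyme variant and of the omega-6 desaturase. None of the 4 was called by limma or limma-voom, and 1 had an unadjusted p below 0.05. Phospholipase C (PGSC0003DMG400001621), which cleaves membrane phosphoinositides into second messengers, held 33.9, 14.7 and 66.0 normalized reads in Gwiazda, against 24.6, 0 and 2.27 in Oberon (log2 difference 2.93 ± 1.25, SE; limma, adjusted p = 0.266; 1.86 without Oberon library b and 4.20 without Oberon library a). Omega-6 desaturase (PGSC0003DMG400002943), which inserts a double bond into fatty acids, held 561, 125 and 243 normalized reads in Gwiazda, against 515, 835 and 428 in Oberon (-1.14 ± 0.53, SE; limma, adjusted p = 0.303). The nonspecific lipid transfer protein held 578 to 988 normalized reads in Gwiazda, against 369 to 834 in Oberon, and the ubiquitin-conjugating enzyme variant 2719 to 3207 in Gwiazda, against 2752 to 3139 in Oberon. The ranges of all 4 genes overlapped between the cultivars.

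Of the 5 remaining genes with a function none was called by limma or limma-voom, and none had an unadjusted p below 0.05. The ATP binding protein (PGSC0003DMG400012174) held 0, 92.1 and 136 normalized reads in Gwiazda, against 32.8, 24.7 and 0 in Oberon. Cyclophilin (PGSC0003DMG400001630), a protein-folding isomerase used as the RT-PCR control, held 18934, 9881 and 24211 normalized reads in Gwiazda, against 19519, 10208 and 18091 in Oberon (log2 difference 0.11 ± 0.38, SE; limma, adjusted p = 0.912). The lowest value of each cultivar was that of library b.

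The 8 genes that the study picked as stable over all cultivars showed small differences. Their log2 differences lay between -0.23 and 0.28 with a median of 0.08, and none was called by limma (adjusted p 0.570 to 0.999) or by limma-voom, nor had any an unadjusted p below 0.05. The study chose them on these samples, so this is no independent evidence of stability. The BTB-POZ and MATH protein, for example, held 4406, 4246 and 4339 normalized reads in Gwiazda, against 3707, 3644 and 4425 in Oberon, and TFIIB, a general transcription factor, 972, 1534 and 1021 in Gwiazda, against 927, 980 and 1056 in Oberon.

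RT-PCR primers of the study covered 98 genes, of which 92 were tested and 3 were called, the same 3 annotated genes, a share near the 3.38% of all genes tested. The 66 targets without an annotation had log2 differences between -2.04 and 2.09 with a median of -0.19. Of the 63 of them that were tested none was called by limma or limma-voom, and 7 had an unadjusted p below 0.05, against 3525 of all 19060 genes. For the 25 of these targets made for Gwiazda and Oberon, the study required no difference on day 0.

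The comparisons of days 6 and 10 used other libraries of the same cultivars and share none with day 0. On day 6, 87 genes were higher and 101 lower in Gwiazda than in Oberon, 1.02% of 18487 genes tested, and on day 10 302 were higher and 261 lower, 3.04% of 18537. Of the 645 genes called on day 0, 608 were also tested on day 6 and 564 of them (92.8%) differed in the same direction, against 63.6% of all 17824 genes in both fits. On day 10 the same direction was found in 536 of 580 (92.4%), against 64.6% of all 17566 genes in both fits. A call in the same direction was made for 113 genes on day 6, which are 17.5% of the day 0 calls and 60.1% of the day 6 calls, and for 211 genes on day 10, 32.7% of the day 0 calls and 37.5% of the day 10 calls. With a minimum mean of 100 normalized reads, 425 genes were called on day 0, and 29 of them (6.82%) were called again on day 6 and 123 (28.9%) on day 10. With the minimum of 10, a call in the opposite direction was made for 1 gene on day 6 and 2 genes on day 10.

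Taken in the direction of day 0, the median log2 difference of the called genes was 1.67 on day 6, against 1.95 on day 0 for the same genes, and 1.39 on day 10, against 1.90 on day 0. The genes were called on day 0, so the day 0 medians are those of the values that chose them. Of the 570 day 0 calls tested on all 3 days, 501 (87.9%) kept 1 direction. In 1 direction on all 3 days 94 genes were called, 56 higher and 38 lower in Gwiazda. A share of all genes over 3 days was not computed for either count. Over all genes in both fits, 63.6% kept the day 0 direction on day 6 and 64.6% on day 10. Oberon library c of day 6 stood apart from its group (median absolute log2 differences of 0.60 and 0.71 from its fellows, against 0.47 between these), and without it 573 of 610 genes had the day 0 direction and 86 were called again.

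**Figure D4:**
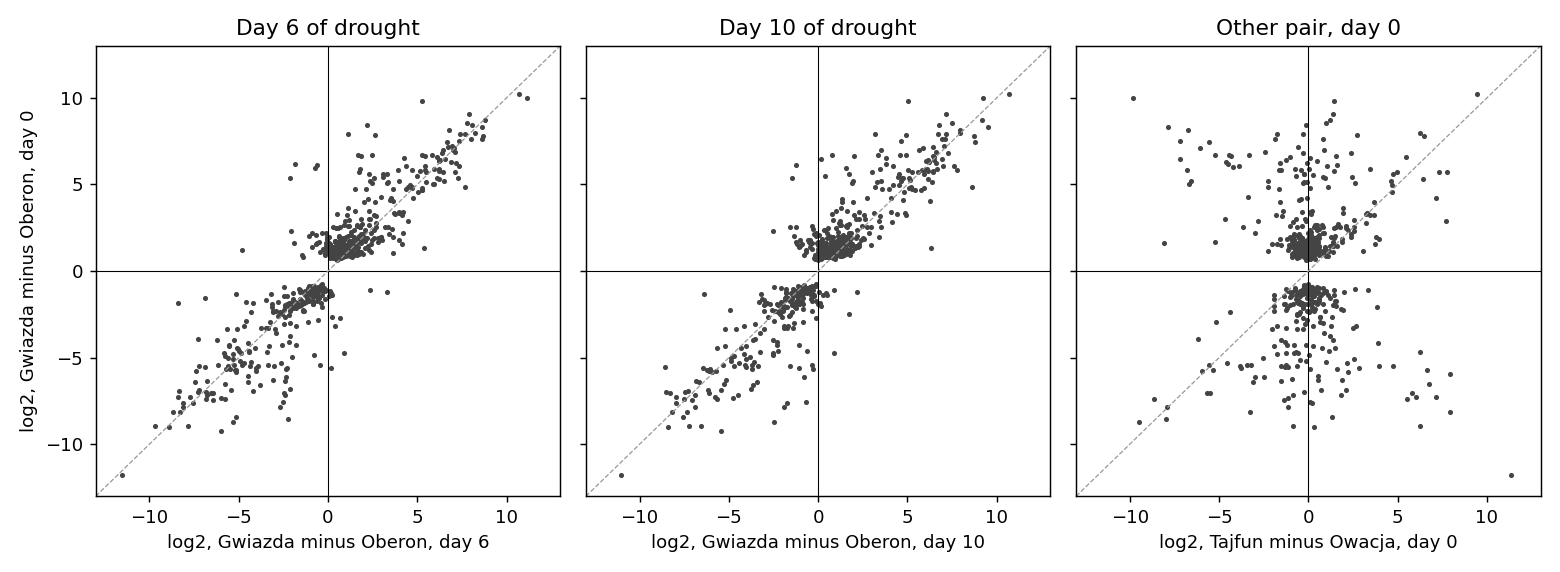
Log2 difference on day 0, Gwiazda minus Oberon (vertical axis), of the genes called on day 0, against the log2 difference of the same genes between Gwiazda and Oberon on day 6 (left), on day 10 (middle) and between Tajfun and Owacja on day 0 (right), with the line of equality dashed. On days 6 and 10 the genes follow the line, with the same direction in 92.8% and 92.4% of them, while in Tajfun and Owacja 51.5% share the direction.

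The difference itself changed between the days in few genes. In 1 fit with a cultivar by day term the Gwiazda minus Oberon difference changed by day 6 in 10 genes (0.052% of 19214; 1582 at an unadjusted p below 0.05) and by day 10 in 15 genes (0.0781%; 1070 at an unadjusted p below 0.05). These were 22 genes in all, 3 of them on both days. Of the 22, 9 had been called on day 0, against 3.38% of all genes tested on day 0. The change is computed with the day 0 values that made those calls, so this count is a description only.

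The cytochrome P450 was the annotated gene whose difference turned round. Lower in Gwiazda on day 0, it held 860, 709 and 624 normalized reads in Gwiazda on day 6, against 67.1, 113 and 47.5 in Oberon (log2 difference 3.33, limma, adjusted p = 0.0151). On day 10 it held 527, 681 and 768 in Gwiazda, against 186 and 110 in Oberon (2.18, limma, adjusted p = 0.0198). Gwiazda libraries were thus above their day 0 values and Oberon libraries below theirs on both days. The change of the difference was 4.52 ± 0.42 by day 6 and 3.36 ± 0.45 by day 10 (SE; limma, adjusted p = 0.000184 and 0.00628). The study picked this gene for Tajfun and Owacja and not for Gwiazda and Oberon.

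The adenylyl cyclase-associated protein was not called on day 0 and was listed at 0 in all 6 Gwiazda drought libraries. Oberon held 130, 113 and 131 normalized reads on day 6 and 31.6 and 45.0 on day 10. The change of the difference was -6.58 ± 0.68 by day 6 and -4.83 ± 0.72 by day 10 (SE; limma, adjusted p = 0.000455 and 0.0137), where the size depends on the value added before taking logs. The study picked this gene for Gwiazda and Oberon on these samples.

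The transporters kept the day 0 direction. The organic cation transporter held 1736, 3181 and 881 normalized reads in Gwiazda on day 6, against 164, 49.6 and 418 in Oberon (log2 difference 3.48, limma, adjusted p = 0.0951). On day 10 it held 1007, 1503 and 1188 in Gwiazda, against 23.7 and 83.8 in Oberon (4.73, limma, adjusted p = 0.00912). The cultivars did not overlap on any of the days, although only days 0 and 10 were called.

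The nitrate transporter held 2525, 2355 and 2467 normalized reads in Gwiazda on day 6, against 450, 597 and 1419 in Oberon (1.75, limma, adjusted p = 0.101). On day 10 it held 1204, 1553 and 1206 in Gwiazda, against 480 and 768 in Oberon (1.11, limma, adjusted p = 0.0809). It too was higher in every Gwiazda library on each day, and it was called on day 0 alone. The calcium ion binding protein, not called on day 0, was called on day 6 (1.68, limma, adjusted p = 0.0443) and CAP160 on day 10 (1.51, limma, adjusted p = 0.0242), but neither difference was shown to change between day 0 and the drought days.

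**Figure D5:**
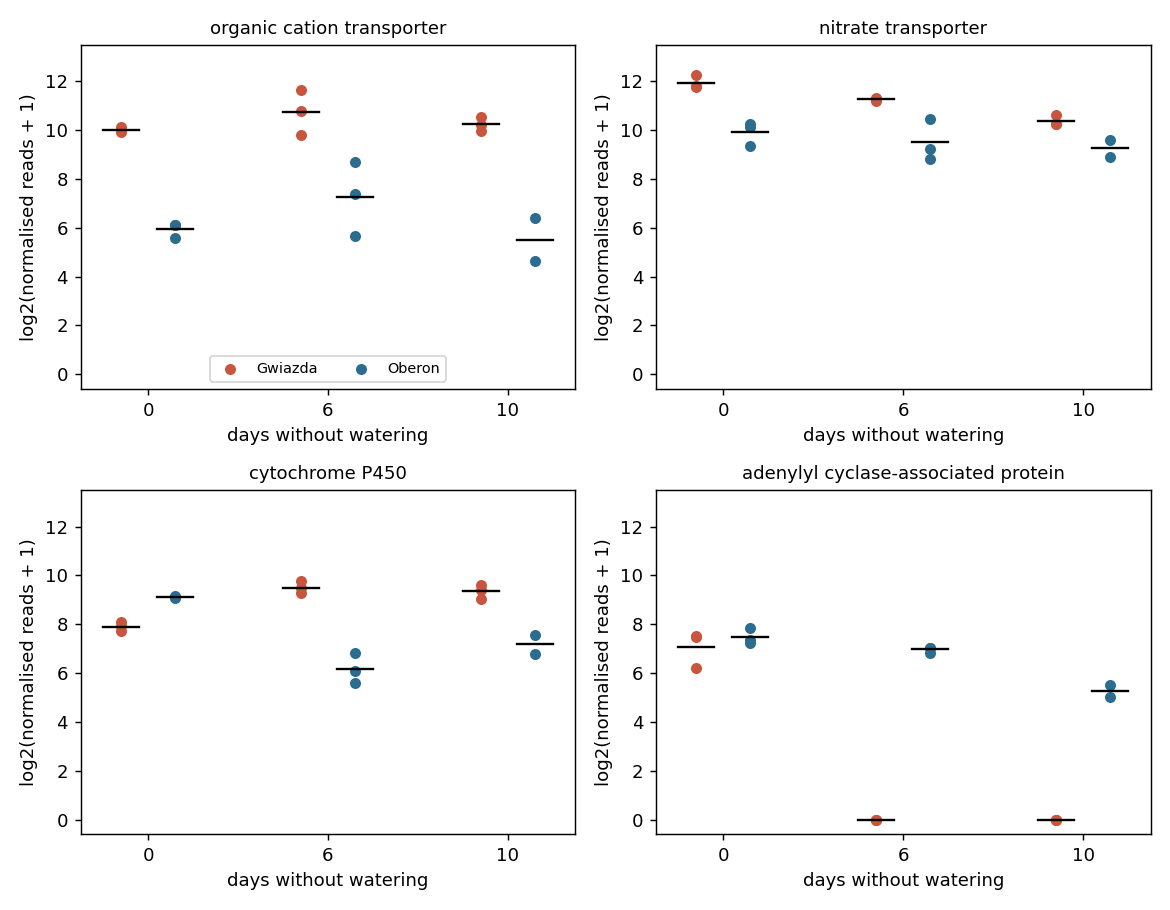
Normalized reads on days 0, 6 and 10 in Gwiazda (left of each pair) and Oberon (right) of the organic cation transporter, the nitrate transporter, the cytochrome P450 and the adenylyl cyclase-associated protein, with a point for each library and a bar at the mean. The transporters are higher in Gwiazda on each day, the P450 is lower in Gwiazda on day 0 and higher on days 6 and 10, and the adenylyl cyclase-associated protein is at 0 in Gwiazda on days 6 and 10.

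The pair Tajfun and Owacja, also a tolerant and a sensitive cultivar, shares no library with Gwiazda and Oberon. On day 0, 460 genes were higher and 473 lower in Tajfun than in Owacja, 4.91% of 19021 genes tested. Of the 645 genes called between Gwiazda and Oberon, 583 were tested in the second pair and 300 (51.5%) differed in the same direction, against 50.7% of all 18192 genes in both fits. A call in the same direction, higher or lower in both tolerant cultivars, was made for 68 genes, 10.5% of the day 0 calls of Gwiazda and Oberon and 7.29% of those of Tajfun and Owacja, and in the opposite direction for 60 genes.

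None of the 3 annotated genes called in Gwiazda and Oberon was called in Tajfun and Owacja. The organic cation transporter held 228, 259 and 43.7 normalized reads in Tajfun, against 137, 268 and 206 in Owacja (log2 difference -0.51, limma, adjusted p = 0.685). The nitrate transporter held 808, 831 and 1307 normalized reads in Tajfun, against 1480, 1328 and 1512 in Owacja (-0.59, limma, adjusted p = 0.181), so that every Tajfun library was below every Owacja library. The cytochrome P450 had a log2 difference of 0.41 (limma, adjusted p = 0.375). The study picked these genes with the absence of a day 0 difference in that pair as a criterion.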

How the data were processed

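Leaf RNA of 3 plants per cultivar and day was sequenced by BGI as strand-specific paired-end libraries. The authors checked reads with FastQC, mapped them with TopHat2 to the potato pseudomolecules, estimated reads per transcript with Flux Capacitor, summed isoforms per gene and ran DESeq on each pair of groups. The signal values deposited in 18 tables of 25289 genes are means over a group, in normalized reads, and 14 tables were used. The other deposited columns hold the authors' ratios, their log2, p-values and adjusted p-values, and were not used. Each group stands in 3 tables with different size factors, so the whole read counts assigned in each library could be solved for. The largest distance from a whole read was 1.49e-06 in Gwiazda on day 0 and 1.26e-06 in Oberon on day 0, and median-of-ratios size factors computed from these reads equalled those of the tables within 1.1e-14. Only 5.52% and 5.27% of genes had an odd number of reads in these groups, so counting intervals would be too narrow. None are given, and for the same reason the floor of 3 reads behind the folds of genes without a read is too low to cover counting error. No 2 libraries agreed within sampling noise (chi-square per gene 51.6 to 141 on day 0).

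Differences were fitted with limma 3.58.1 in R 4.3.3 (lmFit, eBayes with trend) on log2(normalized reads + 1), with cultivar as the only term, for genes with a mean of at least 10 normalized reads, two-sided, and adjusted over all genes tested by the Benjamini-Hochberg method at 0.05. A fold change on this scale understates the change of low genes. The p-values measure the spread between the 3 samples of a group, which the labels call biological replicates. Days 6 and 10 and the pair Tajfun and Owacja were fitted alike, and the change between days with a cultivar by day term over 17 libraries. Named genes were the 33 with a name in the paper. To these came the 2 called genes with the largest difference in each direction (a mean of at least 100 in the higher cultivar and a read in every library). The 2 genes with the highest mean in each direction without a read in the other cultivar were also named. The genes, lists and tests were chosen with earlier results of these data known. Reads were not corrected for gene length, and levels were not compared between genes. Alternatives covered the pseudocount, the minimum mean, the normalization, precision weights, the variance prior, the libraries in the fit, leaving out each library and a fold minimum. Scripts were tested on simulated data. Gene names come from the paper, since 0 of 25289 IDs matched a table of another assembly, and no coordinates are given.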

Additional observations from a re-analysis of the deposited data

Results flagged for a closer look

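The test of a change in the Gwiazda minus Oberon difference between days called 2 annotated genes. For the cytochrome P450 (PGSC0003DMG400014954) the difference changed by 4.52 on the log2 scale between day 0 and day 6 and by 3.36 between day 0 and day 10. It was higher in all 6 Gwiazda drought libraries than in the 5 Oberon drought libraries, and lower in all 3 Gwiazda libraries of day 0. For the adenylyl cyclase-associated protein (PGSC0003DMG400000723) the difference changed by -6.58 between day 0 and day 6 and by -4.83 between day 0 and day 10, where all 6 Gwiazda drought libraries were listed at 0. The study picked the adenylyl cyclase-associated protein on these samples, for a difference under drought but none on day 0. Its change is therefore a description only. Groups of 3 libraries were not tested for single far values.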

How the results depend on the processing

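No paired analysis was possible because the recovered libraries carry no replicate number. The 645 genes called on day 0 became 425 with a minimum mean of 100 normalized reads and 389 with limma-voom, and 244 to 621 when 1 library was left out. Of the 645, 421 were called again with the minimum of 100, 387 with limma-voom and 220 to 438 without 1 library, and none was called in the opposite direction under any alternative run. The other alternatives gave 551 (scaling to total reads) to 746 calls (all days in 1 fit), within 1.5 times the main count, and no scaling moved the median log2 difference of all genes beyond -0.05. Tajfun minus Owacja gave 370 to 726 calls when 1 library was left out, chosen after seeing the data, against 933. The 1408 genes at least 2-fold apart by the authors' means became 3503 with a minimum mean of 10, 283 with 1000, 3367 at 1.5-fold and 365 at 4-fold. The 68 genes without a read in 1 cultivar became 456 with a minimum of 10 in the other cultivar and 2 with 1000. Day 0 calls seen again became 564 on day 6 and 536 on day 10 by direction only, and 29 and 123 with a minimum mean of 100.

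Of the named genes' values under the alternatives, 539 kept direction and side of the threshold, 7 in 3 genes lost the call, 2 in 2 genes gained it and 25 in 13 genes changed sign, all in genes that were not called. When 1 library was left out, the log2 difference lay between -0.25 and 0.84 for RAB18, -0.63 and 0.29 for ST225, -0.048 and 0.54 for the nonspecific lipid transfer protein, -0.080 and 0.040 for the ubiquitin-conjugating enzyme variant, -0.64 and 0.012 for the adenylyl cyclase-associated protein, -0.73 and 0.093 for aminoadipic semialdehyde synthase, -0.34 and 3.57 for the ATP binding protein, -2.16 and 2.09 for the DEAD box RNA helicase, -0.18 and 0.48 for cyclophilin, -0.097 and 0.039 for the protein of unknown function, -0.0024 and 0.16 for hyoscyamine 6-dioxygenase, -0.15 and 0.21 for EMB2756, and -0.047 and 0.27 for Golgi SNARE 11. With all days in 1 fit EMB2756 was at 0.014. The median standard error was 0.70 for genes below 100 normalized reads, against 0.21 from 1000 to 10000 normalized reads, and the part of depth in this was not tested. Both cultivars were mapped to 1 reference, with a lower mapped share in Oberon on day 0 by the paper's summary. A group holds 3 libraries, or 2 for Oberon on day 10.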
